A study of Mus musculus with 14 samples.

Results

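The enzymes of bile acid synthesis that were followed in mouse liver were 10 genes: Cyp7a1, Cyp8b1, Cyp7b1, Cyp27a1, Cyp39a1, Akr1d1, Amacr, Acox2, Slc27a5 and Baat, which act from the opening hydroxylation of cholesterol to the conjugation of the finished bile acid. They were found on the arrays by the RefSeq accession of each probe. All 10 genes were matched, of 19751 named on the array, by 11 of the 39429 probes, since Slc27a5 had 2 probes and every other gene 1. Liver RNA came from male and female CD-1 mice, an outbred stock, without any named treatment, in 6 groups: males and females at 3 wk (M3 and F3, 5 mice per pool), at 4 wk (M4 and F4, 6 mice per pool) and at 8 wk (M8 and F8, 6 mice per pool). Each group was represented by 2 RNA pools. The pools were competed against each other on 14 arrays in 7 comparisons, with 2 arrays per comparison, 1 for each pair of pools and with the dyes exchanged. Males were set against females at each age (M3/F3, M4/F4 and M8/F8), and 8 wk was set against each younger age within males (M8/M3, M8/M4) and within females (F8/F3, F8/F4). The same pools served in several comparisons, so that the ratios of M8/M3, M8/M4 and M8/F8 share the M8 pools, and so on.

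The liver disposes of cholesterol by turning it into bile acids in hepatocytes. The classic route opens with Cyp7a1, and the alternative route opens with Cyp27a1 and proceeds through Cyp7b1. Akr1d1 then reduces the sterol ring, peroxisomal enzymes such as Amacr and Acox2 shorten the side chain, and Slc27a5 and Baat join the product to coenzyme A and then to taurine or glycine. Synthesis is held down by returning bile acids through the receptor Nr1h4 (FXR) and its target Nr0b2 (SHP), and through intestinal Fgf15 acting on Fgfr4 and its partner Klb. Cyp7a1 transcripts also follow a daily rhythm.

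All 11 probes were well above background in both channels of all 14 arrays and none was saturated, so every ratio of an enzyme is measured and not a bound. Across the arrays, 55.2% to 77.2% of spots in a channel were well above background. Ddx3y, a Y-linked gene, had a log2 ratio of male over female between 5.81 and 7.24 on the 6 arrays that compared the sexes, in the direction set by the dye labels. Afp, a fetal liver gene that is silenced after birth, was lower at 8 wk on all 8 age arrays, with log2 ratios from -0.58 to -3.24. Values are log2 ratios on array 1 and array 2, from the separate pools, followed by the estimate of the limma fit with its standard error. A gene was called when its Benjamini-Hochberg adjusted p in limma was below 0.05, its ratio was above 1.5 or below 0.667, and the probe was well above background on both arrays in at least 1 group. The 3 sex comparisons and M8/M3 were on slides of the first scan day, and the other 3 age comparisons on slides of the second. In whole liver, fewer cells of a type and less RNA per cell cannot be told apart.

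The enzymes split into a set that rose towards 8 wk and a set that fell in males. Cyp7b1, Cyp8b1, Cyp27a1, Amacr and Baat rose in male liver from 3 to 8 wk, while Cyp39a1 and Akr1d1 fell. Cyp7a1, Cyp8b1 and Slc27a5 rose in female liver over the same period, and none of the enzymes was called lower in females with age. A change called in males alone or in females alone is no test of a difference between the sexes. At 8 wk Cyp7b1 was higher in males, and Cyp7a1, Cyp39a1 and Akr1d1 were higher in females. Of the enzymes, 9 of 10 met the criteria of a call in 1 or more of the 7 comparisons, as did 21.8% of all probes, and Acox2 in none.

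**Figure D1:**
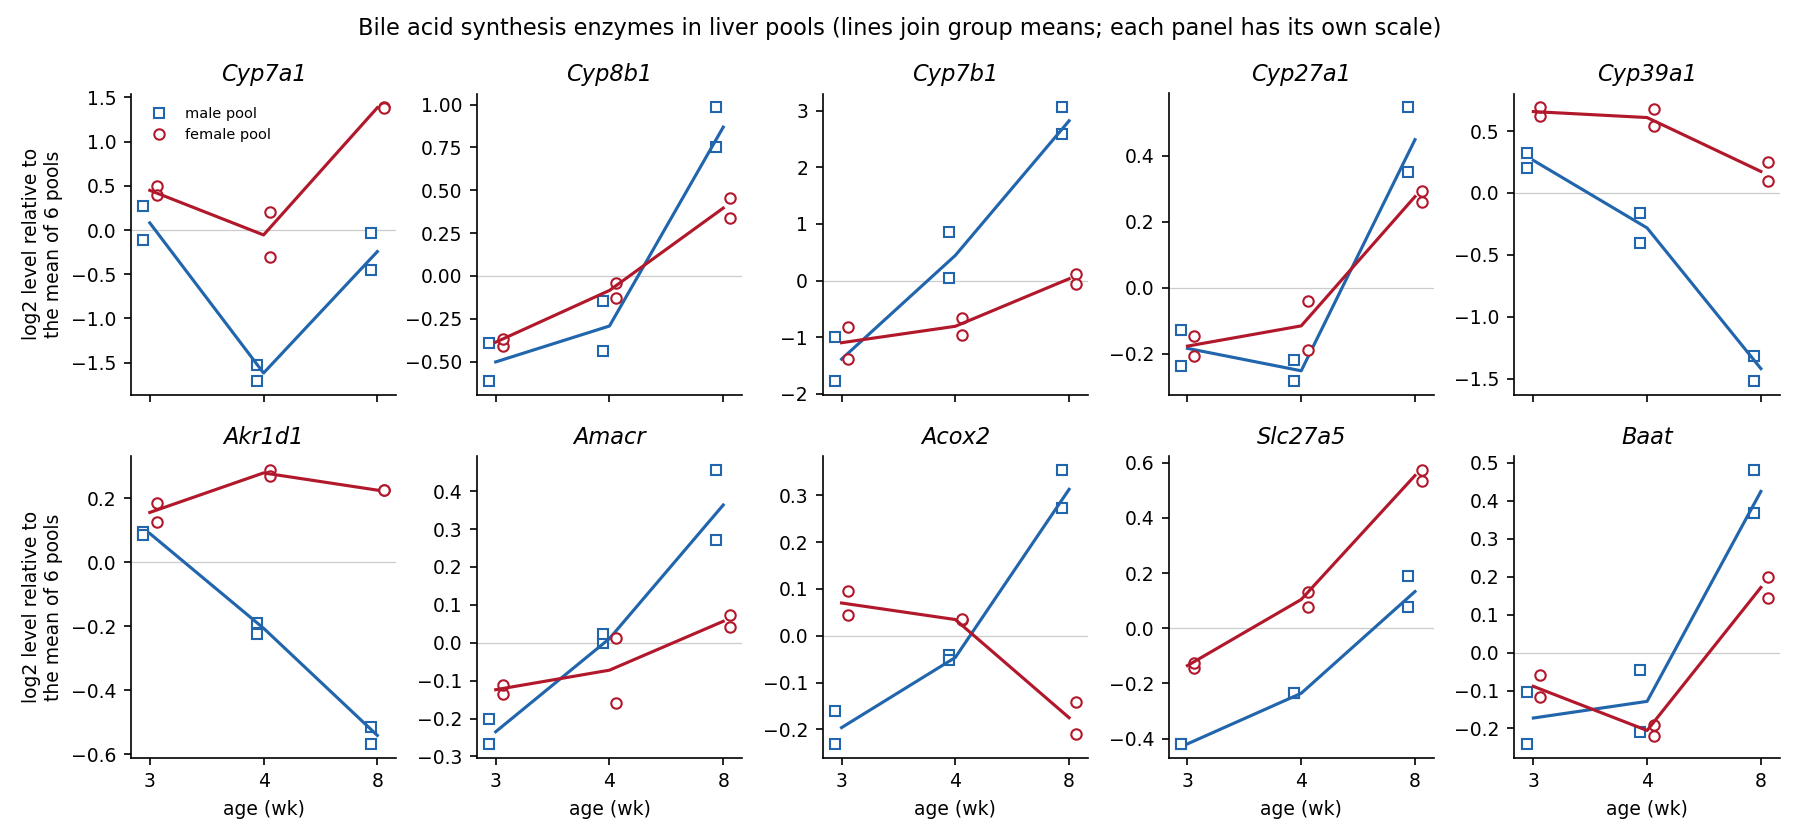
Log2 level of each enzyme in every pool (vertical axis, relative to the mean of the 6 pools with the same replicate number) against age in wk, with squares for male pools, circles for female pools and lines through the means of 2 pools. Cyp7a1 was lowest in the M4 pools (-1.53 and -1.71), Cyp7b1 highest in the M8 pools (2.58 and 3.06), and Cyp39a1 lowest in the M8 pools (-1.32 and -1.52).

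No enzyme was called in M3/F3, where 0.464% of 22623 probes were called. In that comparison 3 enzymes had an unadjusted limma p below 0.05, 2 had an adjusted p below 0.05 with ratios under the fold threshold (3.18% of probes passed the adjusted p alone), and 0 were called by the error-weighted average, which weighs each array by the scanner's own error and calls at an unadjusted p below 0.0001. In M4/F4, 2 of 10 were called, both lower in males, against 1.44% of all probes in either direction and 0.89% lower. In M8/F8, 4 of 10 were called, 1 higher and 3 lower in males, against 6.31% of probes (2.81% higher, 3.5% lower). The median log2 ratio of the enzymes of males over females was below 0 at 3 wk (-0.19) and 4 wk (-0.18) and above it at 8 wk (0.21), beside medians over all probes tested of 0.00306, 0.00466 and 0.00666.

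With age, 7 of 10 enzymes were called in M8/M3 (5 higher, 2 lower), against 16.8% of probes (8.24% higher, 8.56% lower), and 5 of 10 in M8/M4 (4 higher, 1 lower), against 10.1% (4.65% higher, 5.43% lower). In females 3 of 10 were called in F8/F3, all higher, against 10.8% of probes in either direction and 5.32% higher. In F8/F4 1 of 10 was called, also higher, against 5.41% in either direction and 2.43% higher. The median log2 ratio of the enzymes with age was 0.58 from 3 wk and 0.46 from 4 wk in males, and 0.35 and 0.39 in females, and that of all probes tested lay between 0.0161 and 0.0219. In M8/M4 all 10 enzymes had an adjusted p below 0.05, against 27% of all probes without a fold threshold, 8 of them higher and 2 lower at 8 wk, so there the fold threshold decided which were called. Over the 22 calls of an enzyme in a comparison, both arrays moved in the called direction in 22, which the criteria of a call favour in advance.

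**Figure D2:**
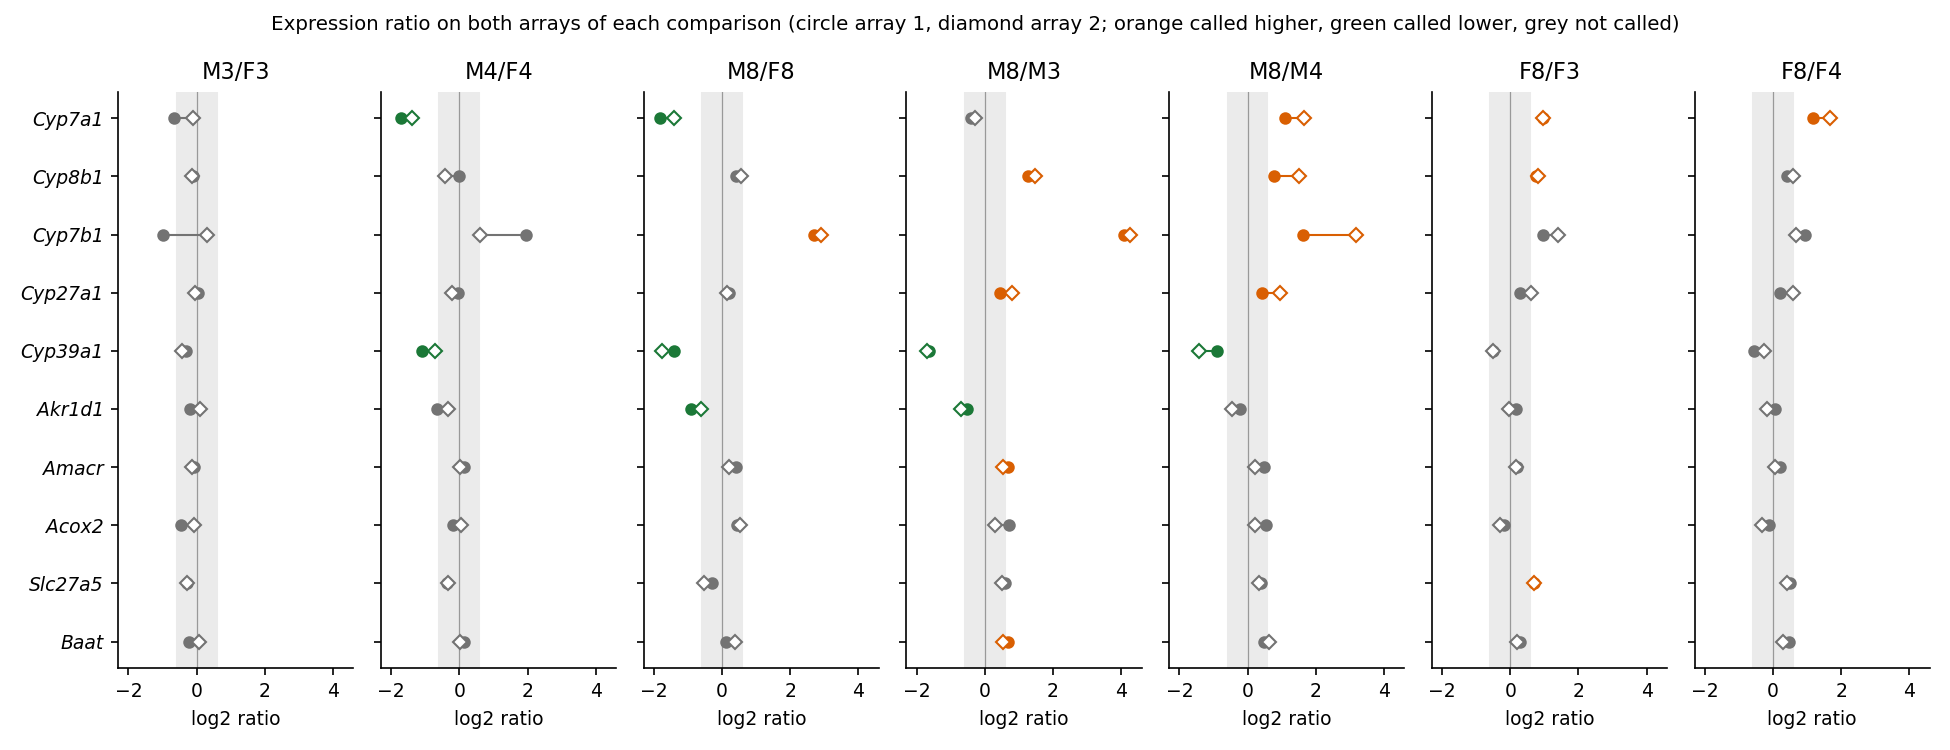
Log2 expression ratio (horizontal axis) of each enzyme on array 1 (circle) and array 2 (diamond) of the 7 comparisons, with a line between both and the range within 1.5-fold shaded. Orange marks a gene called higher in the group named first, green one called lower and grey one not called. Cyp7b1 has the widest gap between its arrays, in M8/M4 (1.63 and 3.19) and M4/F4 (1.97 and 0.60).

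Cyp7a1, the rate-limiting enzyme of the classic route, was lower in males than in females at 4 and 8 wk. Its log2 ratios of male over female were -0.66 and -0.12 at 3 wk, -1.72 and -1.40 at 4 wk, and -1.81 and -1.41 at 8 wk. The ratio was 2.95-fold lower in males at 4 wk (log2 -1.56 ± 0.21 SE, adjusted p = 0.00372) and 3.06-fold lower at 8 wk (-1.61 ± 0.21, adjusted p = 0.00327), and at 3 wk it was not called (-0.39 ± 0.21, adjusted p = 0.301). Among the 197 probes called lower in males in M4/F4, the one of Cyp7a1 ranked 29th by size.

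With age, Cyp7a1 was called from 4 wk in both sexes and from 3 wk in females. From 4 wk it rose 2.60-fold in males (1.09 and 1.67 on the 2 arrays, adjusted p = 0.00598) and 2.71-fold in females (1.18 and 1.69, adjusted p = 0.00511). From 3 wk it rose 1.94-fold in females (0.95 and 0.96, adjusted p = 0.0242), and in males its log2 ratios were -0.39 and -0.30 (adjusted p = 0.37). With 1 array of a comparison left out, the call was lost in M8/M4 without replicate 2 (1.03, adjusted p = 0.0655), in F8/F4 without replicate 2 (1.14, adjusted p = 0.0575), and in F8/F3 without either replicate (0.97 and 0.94, adjusted p = 0.139 and 0.149). The pool levels showed the same order: F8 stood highest at 1.38 ± 0.0078 (SD, n = 2 pools), F3 followed at 0.45 ± 0.07, and M4 stood lowest at -1.62 ± 0.13. Between them the pools of M3 (-0.11 and 0.27), F4 (0.20 and -0.31) and M8 (-0.45 and -0.03) overlapped.

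No array set 3 against 4 wk, but both ages were compared with the same M8 or F8 pools, whose level drops out of the difference. Through these pools, Cyp7a1 was at log2 -1.72 ± 0.29 in M4 relative to M3 (-1.48 and -1.96 for the 2 replicates), a ratio of 0.303 that was not called (adjusted p = 0.0755). It was called with the replicate number as a block (adjusted p = 0.0331) and with a covariance that holds the shared pools (adjusted p = 0.0303). In females the same difference was -0.48 ± 0.29 (-0.24 and -0.73, adjusted p = 0.647). Across all 10 enzymes 0 were called between 3 and 4 wk in either sex, with 4 at an unadjusted limma p below 0.05 in males and 1 in females, and 2 and 0 called by the error-weighted average. Of all probes, limma called 0.228% in males (61 of 26787) and 0.0897% in females (24 of 26767). The error-weighted average called 290 and 249 probes.

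Time of killing was not given in the sources used here, and several clock genes moved with age on the same arrays. Dbp, a transcription factor of the clock output, had log2 ratios of 2.42 and 3.09 from 3 wk and 2.55 and 3.24 from 4 wk in males, and of 2.98 and 2.98 from 3 wk and 2.999 and 2.91 from 4 wk in females. Nr1d1, a repressor within the clock, was 7.76-fold higher in M8/M3 and 8.25-fold higher in F8/F3, where it was well above background in both groups on both arrays. On the arrays of M3/F3, however, it was well above background in neither group, so its 3 wk level was low. Of 16 clock genes tested with age, 7 were called from 3 wk and 6 from 4 wk in males, and 8 from each age in females. In M4/F4, where Cyp7a1 differed between the sexes, 0 of 15 clock genes were called, the log2 ratios of Dbp were 0.14 and -0.24, and the fitted ratio of Per1 was -0.90 (adjusted p = 0.0765). In M3/F3 Per1 stood at -0.96 (adjusted p = 0.0636). In M8/F8 only Per1 was called, at -1.71 and -0.69 (adjusted p = 0.0291), and the 2 arrays disagreed for Dbp at -1.65 and 0.47. Array 1 also gave the larger difference for Ciart (-3.05 and 0.09), Npas2 (1.75 and -0.01), Per3 (-1.77 and -0.39) and Arntl (0.94 and -0.19). For Nr1d1 (-0.04 and 0.38) array 2 did. The part of the clock genes in the Cyp7a1 ratios was not tested.

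**Figure D3:**
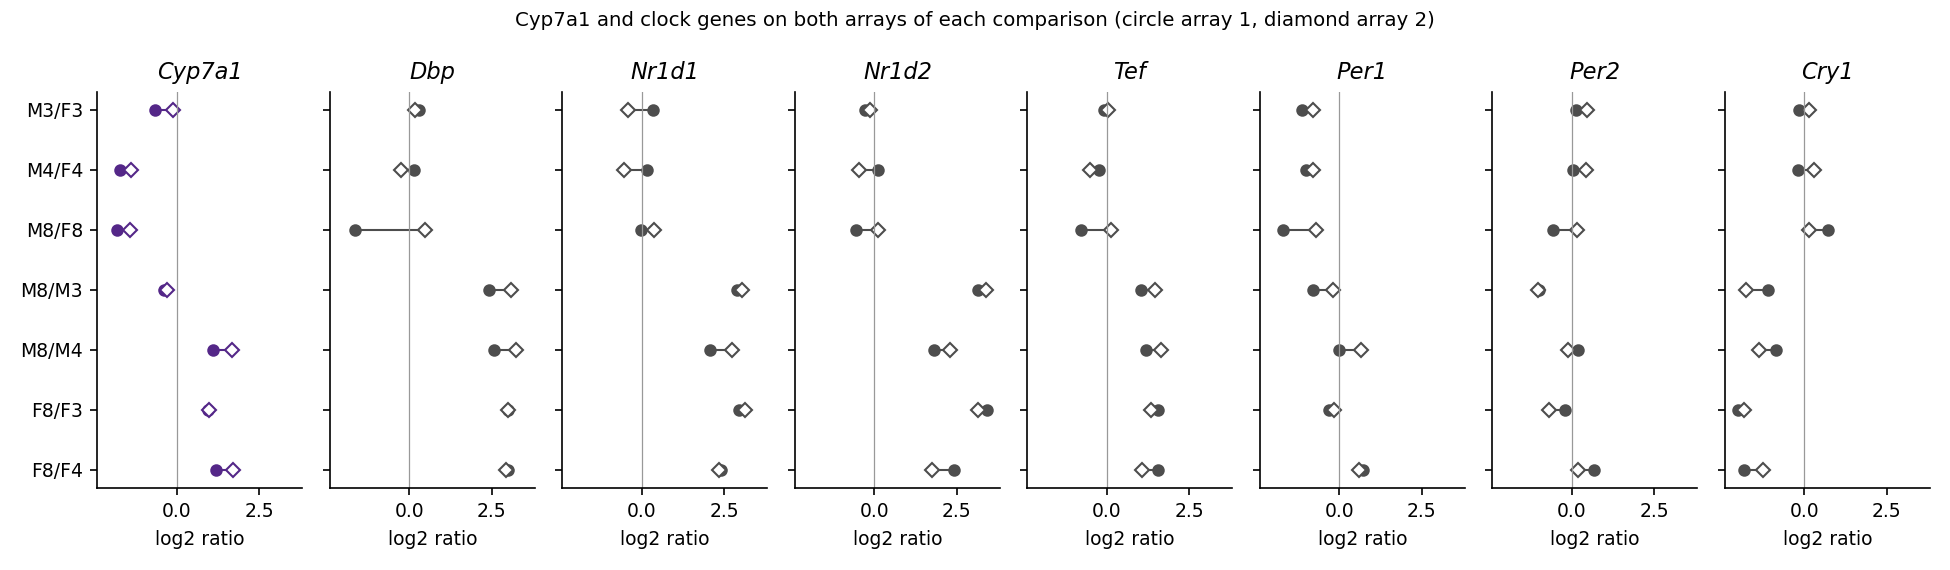
Log2 ratio (horizontal axis) of Cyp7a1 and 7 clock genes on array 1 (circle) and array 2 (diamond) in the 7 comparisons (vertical axis). Dbp, Nr1d1 and Nr1d2 lie at 1.746 or above in all 4 age comparisons, whereas Cyp7a1 lies above 0 in 3 of them and at -0.39 and -0.30 in M8/M3.

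Cyp8b1 and Cyp27a1, which were called in no sex comparison, rose towards 8 wk. Cyp8b1 adds the hydroxyl group that directs synthesis to cholic acid. Its log2 ratios were 1.26 and 1.48 from 3 wk and 0.79 and 1.51 from 4 wk in males, and 0.75 and 0.81 from 3 wk and 0.40 and 0.58 from 4 wk in females. All 8 age ratios were positive, and the rise was called from 3 wk in males (2.59-fold, adjusted p = 0.00126), from 4 wk in males (2.22-fold, adjusted p = 0.00244) and from 3 wk in females (1.72-fold, adjusted p = 0.0108), but not from 4 wk in females (1.41-fold, adjusted p = 0.0587). The call in F8/F3 was lost without replicate 1 (0.69, adjusted p = 0.106) or replicate 2 (0.87, adjusted p = 0.0555). In M8/F8 Cyp8b1 stood at 0.41 and 0.56, which was not called (1.40-fold, adjusted p = 0.0626), and at 3 and 4 wk at -0.11 ± 0.14 and -0.22 ± 0.14.

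Cyp27a1, the mitochondrial sterol hydroxylase that opens the alternative route and also oxidizes the side chain in the classic one, rose 1.55-fold in M8/M3 (0.46 and 0.81, adjusted p = 0.00356) and 1.62-fold in M8/M4 (0.43 and 0.97, adjusted p = 0.0025). In females its ratios were 0.30 and 0.60 in F8/F3 (adjusted p = 0.0135) and 0.21 and 0.58 in F8/F4 (adjusted p = 0.022), with ratios of 1.37 and 1.31 that stayed under the fold threshold. Without replicate 2 of M8/M4 the male ratio from 4 wk was 0.54 and under the threshold as well. No sex ratio of Cyp27a1 had an adjusted p below 0.25. Array 2, from the other pair of pools and with the 8 wk pool in the red dye, gave the higher age ratio of Cyp27a1 in all 4 age comparisons, as it did for Cyp8b1.

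The RefSeq promoter table (build GRCm38.p6) held 4 of the 10 enzymes, and Cyp7a1, Cyp7b1, Cyp39a1, Amacr, Baat and Slc27a5 were not listed. The 250 bases before the start are shown for Cyp8b1 and Cyp27a1, which rose together, at chr9:121916306-121916555 (minus strand) and chr1:74713285-74713534 (plus strand), written in the direction of the gene.
Cyp8b1: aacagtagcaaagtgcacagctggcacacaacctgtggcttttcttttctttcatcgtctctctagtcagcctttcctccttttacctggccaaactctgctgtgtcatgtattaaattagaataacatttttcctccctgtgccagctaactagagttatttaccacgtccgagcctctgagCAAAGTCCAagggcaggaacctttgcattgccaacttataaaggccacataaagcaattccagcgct
Cyp27a1: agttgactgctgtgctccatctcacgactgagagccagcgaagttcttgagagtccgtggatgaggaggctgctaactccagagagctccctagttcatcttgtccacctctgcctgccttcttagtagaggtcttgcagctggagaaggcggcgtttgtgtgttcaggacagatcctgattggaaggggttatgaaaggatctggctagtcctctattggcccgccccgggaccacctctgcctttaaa
Capitals mark matches to 4 motifs that were searched on both strands and do not overlap here: AGGTCA, the element bound by many nuclear receptors, CAAAGTCCA, an element of the HNF4A type, TTCNNNGAA, the STAT5 element, and CACGTG, the E-box. Cyp8b1 held CAAAGTCCA from base -67 to base -59 counted from the start, a motif found in 0.384% of 32817 promoter windows of this length. Cyp27a1 held none of the 4 motifs in this window. Transcripts of Hnf4a itself had log2 ratios of -0.08 and 0.40 in M8/M3 and 0.07 and -0.06 in F8/F3 and were not called.

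Cyp7b1, the oxysterol hydroxylase of the alternative route, had the widest range of the 10 enzymes, with an 18.6-fold span between its highest group, M8, and its lowest, M3. Its log2 ratios were 4.09 and 4.25 in M8/M3 and 1.63 and 3.19 in M8/M4. It rose 18.0-fold from 3 to 8 wk in males (adjusted p = 0.00188), which placed it 39th of 2087 probes called higher, and 5.31-fold from 4 to 8 wk (adjusted p = 0.0155). In females the ratios were 0.95 and 1.39 from 3 wk and 0.93 and 0.69 from 4 wk, which were positive on all 4 arrays and not called (adjusted p = 0.158 and 0.34).

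Between the sexes Cyp7b1 was 6.99-fold higher in males at 8 wk (2.71 and 2.91, adjusted p = 0.00861). At 4 wk both arrays were positive but far apart (1.97 and 0.60, adjusted p = 0.127), and at 3 wk they had opposite signs (-0.97 and 0.31). The 2 M3 pools stood at -1.78 and -1.001, the 2 M4 pools at 0.85 and 0.04, and the 2 M8 pools at 2.58 and 3.06, so the male pools did not overlap between ages. Without replicate 2 of M8/M4 the rise from 4 wk was 1.65 with an adjusted p of 0.163, and without replicate 2 of M8/F8 the ratio at 8 wk was 2.54 with an adjusted p of 0.0805.

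Cyp39a1, the oxysterol hydroxylase that acts on the product of Cyp46a1, went the other way. Its log2 ratios were -1.64 and -1.70 in M8/M3 and -0.90 and -1.41 in M8/M4. In males it fell to 0.314 of its level from 3 to 8 wk (3.18-fold, adjusted p = 0.000949) and to 0.449 from 4 to 8 wk (2.23-fold, adjusted p = 0.00373). In females its ratios were -0.49 and -0.50 from 3 wk and -0.56 and -0.27 from 4 wk, which were not called (adjusted p = 0.0815 and 0.133). The sex ratio was not called at 3 wk (-0.33 and -0.44, adjusted p = 0.166). It was 1.88-fold lower in males at 4 wk (-1.11 and -0.71, adjusted p = 0.00933) and 3.01-fold lower at 8 wk (-1.42 and -1.76, adjusted p = 0.00113). The call at 4 wk was lost without replicate 1 of M4/F4 (-0.70, adjusted p = 0.102) and with adjustment within the comparison (adjusted p = 0.053). By pool level the order was F3, F4, M3, F8, M4 and M8, and the pools of F3 (0.62 and 0.69) overlapped with those of F4 (0.68 and 0.54), as did those of M3 (0.33 and 0.20) with those of F8 (0.10 and 0.25).

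Akr1d1, the reductase that sets the ring structure of bile acids, was also lower in males at 8 wk and fell in males with age. Its sex ratios were -0.21 and 0.11 at 3 wk, -0.65 and -0.34 at 4 wk, and -0.92 and -0.63 at 8 wk. It was 1.71-fold lower in males at 8 wk (log2 -0.78 ± 0.032 SE, adjusted p = 9.14e-05), and at 4 wk the 1.41-fold difference passed the adjusted p (0.000296) but not the fold threshold. In males it fell 1.53-fold from 3 to 8 wk (-0.53 and -0.70, adjusted p = 0.000158) and stood at 0.789 of its 4 wk level at 8 wk (adjusted p = 0.000999). In females the ratios were 0.16 and -0.05 from 3 wk and 0.07 and -0.17 from 4 wk (adjusted p = 0.356 and 0.444). Without replicate 1 of M8/M3 the male fall from 3 wk was 0.57 on the log2 scale and under the threshold. In all 7 comparisons the array with the first-named group in the red dye gave the lower ratio of Akr1d1, and the dye term of the fit took up this difference.

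Amacr and Acox2, which act on the side chain in peroxisomes, moved little beyond the fold threshold. Amacr, the racemase, had log2 ratios of 0.67 and 0.54 in M8/M3, a 1.52-fold rise (adjusted p = 0.00327) that lay just past the threshold and fell under it without replicate 1 (0.55), and of 0.47 and 0.23 in M8/M4 (1.27-fold, adjusted p = 0.0273). In M8/F8 it stood at 0.40 and 0.21 (1.23-fold, adjusted p = 0.0443), and in females with age at 0.19 and 0.15 from 3 wk and 0.21 and 0.06 from 4 wk. Acox2, the branched-chain oxidase, was higher in males at 8 wk on both arrays (0.44 and 0.53, 1.40-fold, adjusted p = 0.00269) and lower at 3 wk (-0.46 and -0.08, 1.21-fold lower, adjusted p = 0.0248), both under the fold threshold. Its age ratios were positive in males, at 0.70 and 0.31 in M8/M3 (called without replicate 2, at 0.59), and negative in females, at -0.17 and -0.31 from 3 wk and -0.13 and -0.31 from 4 wk.

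The windows before the starts of Akr1d1 and Acox2, whose change with age differed between the sexes in opposite directions, are shown in the same way, at chr6:37529923-37530172 (plus strand) and chr14:8259020-8259269 (minus strand).
Akr1d1: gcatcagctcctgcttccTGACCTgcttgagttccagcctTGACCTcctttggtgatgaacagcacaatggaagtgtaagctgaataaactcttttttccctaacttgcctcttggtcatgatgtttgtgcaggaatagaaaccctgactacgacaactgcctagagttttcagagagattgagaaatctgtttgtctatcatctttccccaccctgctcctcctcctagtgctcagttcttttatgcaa
Acox2: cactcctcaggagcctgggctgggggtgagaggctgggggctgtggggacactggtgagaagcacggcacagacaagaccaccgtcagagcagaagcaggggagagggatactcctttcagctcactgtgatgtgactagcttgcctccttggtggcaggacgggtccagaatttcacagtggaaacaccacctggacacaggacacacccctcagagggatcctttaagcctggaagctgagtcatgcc
Akr1d1 held 2 copies of AGGTCA on the opposite strand, from base -232 to -227 and from -210 to -205, a motif present in 14% of the promoter windows. Acox2 held none of the 4 motifs, either here or before the other of its 2 listed starts. TTCNNNGAA, present in 7.01% of windows, and CACGTG, present in 6.02%, were in none of the 4 promoters.

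Slc27a5 and Baat, the last enzymes of the route, were higher at 8 wk on all age arrays. From 3 wk Slc27a5 was called in females and Baat in males. The difference between the sexes in that change was called for neither (adjusted p = 0.411 and 0.173). Slc27a5, the bile acid coenzyme A ligase, had log2 ratios of 0.69 and 0.69 in F8/F3 and rose 1.61-fold (adjusted p = 0.000619). In M8/M3 it stood at 0.59 and 0.50 (1.46-fold, adjusted p = 0.00139), just under the threshold and past it without replicate 2 (0.60), and from 4 wk at 0.38 and 0.34 in males and 0.50 and 0.41 in females. By its brighter probe it was lower in males on all 6 arrays that compared the sexes, with ratios of 0.820 at 3 wk, 0.786 at 4 wk and 0.753 at 8 wk (adjusted p = 0.0167, 0.00801 and 0.00422), none past the fold threshold. The other probe of Slc27a5 rose 1.52-fold in F8/F3 (adjusted p = 0.00219) and was lower in males on the sex arrays other than array 2 of M3/F3, whose log2 ratio was 0.08. It gave 0.955, 0.854 and 0.820 for the same sex ratios, of which that at 8 wk passed the adjusted p (0.0378).

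Baat, which conjugates bile acids to taurine or glycine, rose 1.52-fold in M8/M3 (0.68 and 0.54, adjusted p = 0.00461). In M8/M4 it stood at 0.47 and 0.63 (1.47-fold, adjusted p = 0.00666) and in F8/F4 at 0.47 and 0.29 (1.30-fold, adjusted p = 0.0275), both under the fold threshold. In F8/F3 it stood at 0.30 and 0.20 (1.19-fold, adjusted p = 0.109). Its sex ratios were -0.07 ± 0.08 at 3 wk, 0.07 ± 0.08 at 4 wk and 0.25 ± 0.08 at 8 wk, with adjusted p of 0.736, 0.731 and 0.115.

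The change with age was then compared directly between the sexes, as M8/M3 minus F8/F3. The difference was called for 3 of 10 enzymes, against 3.22% of all probes (1.67% higher and 1.55% lower in males). For Cyp39a1 the log2 difference was -1.17 ± 0.22 SE (-1.14 and -1.20 for the 2 replicates, adjusted p = 0.0333), and for Akr1d1 -0.67 ± 0.045 (-0.69 and -0.66, adjusted p = 0.00177), so that the ratio was lower in males. For Acox2 it was 0.74 ± 0.083 (0.87 and 0.62, adjusted p = 0.00751), so that the ratio was higher in males. The difference of Cyp39a1 was not called with the replicate number as a block (adjusted p = 0.0505) or with the slide as a block (adjusted p = 0.0861), nor without either replicate of M8/M3 (0.144 and 0.138) or F8/F3 (0.14 and 0.143), nor without either array of M3/F3 (0.0583) or F8/F4 (0.0513), which enter through the shared spread. Those of Akr1d1 and Acox2 were not called without a dye term (adjusted p = 0.107 and 0.0931), nor by the error-weighted average, which calls at an unadjusted p below 0.0001 (its adjusted p = 0.00132 and 0.000384).

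The enzymes with the largest differences between the sexes in this contrast were not called. Cyp7b1 differed by 3.00 (3.14 and 2.85, SE 0.65, adjusted p = 0.0565), and Cyp7a1 by -1.30 (-1.34 and -1.26, SE 0.29, adjusted p = 0.0616). Cyp7a1 was called with the replicate block (adjusted p = 0.0148) and the slide block (adjusted p = 0.0267), and Cyp7b1 without either array of M3/F3 (adjusted p = 0.0415). For Amacr the difference was 0.43 (adjusted p = 0.0858), for Cyp8b1 0.59 (adjusted p = 0.162) and for Baat 0.36 (adjusted p = 0.173). It was 0.19 for Cyp27a1 (adjusted p = 0.479) and -0.14 for Slc27a5 (adjusted p = 0.411).

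M8/M3 was hybridized on slides of the first scan day and F8/F3 on slides of the second. The same difference can be taken from M8/F8 minus M3/F3, all on slides of the first day and from the same pools. It then came to -1.10 and -1.32 for Cyp39a1, -0.71 and -0.74 for Akr1d1, 0.90 and 0.61 for Acox2, 3.68 and 2.60 for Cyp7b1 and -1.15 and -1.30 for Cyp7a1. From 4 wk, as M8/M4 minus F8/F4, 0 of 10 enzymes were called, against 1.34% of probes, with 6 at an unadjusted limma p below 0.05. The error-weighted average called 1 enzyme there, and 674 of all probes in place of the 363 in limma. Akr1d1 (-0.30, adjusted p = 0.0325) and Acox2 (0.58, adjusted p = 0.0282) passed the adjusted p there but not the fold threshold, Acox2 with a ratio of 1.499, and Cyp7a1 stood at -0.06 ± 0.29.

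**Figure D4:**
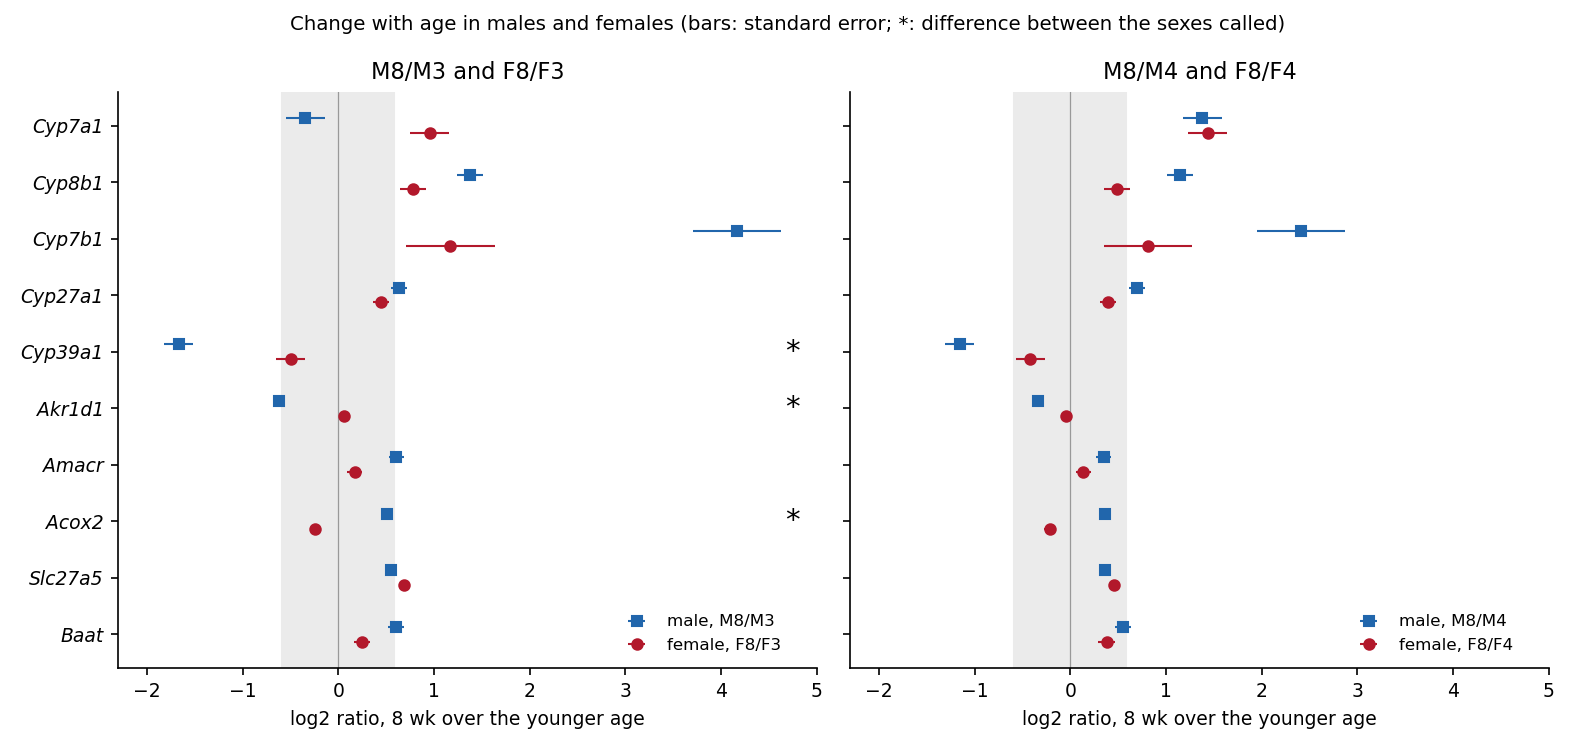
Log2 ratio of 8 wk over 3 wk (left) and over 4 wk (right) from the limma fit for each enzyme (vertical axis) in males (squares) and females (circles), with bars for the standard error and the range within 1.5-fold shaded. An asterisk marks a called difference between the sexes, which Cyp39a1, Akr1d1 and Acox2 had from 3 wk (-1.17, -0.67 and 0.74) and no enzyme from 4 wk.

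Counts called in other lists stand beside shares of all probes of 0.464%, 1.44% and 6.31% between the sexes at 3, 4 and 8 wk, 16.8% and 10.1% in males from 3 and 4 wk, and 10.8% and 5.41% in females. Of 13 further genes of bile acid synthesis, 2 were called higher and 1 lower in males at 8 wk and 0 of the 12 tested at 3 and 4 wk (median log2 ratios 0.0094, -0.011 and 0.030). With age, 6 were called higher and 0 lower from 3 to 8 wk in males, 1 higher from 4 wk in males, 2 higher from 3 wk in females and 1 higher from 4 wk in females, and their median log2 ratios were 0.38, 0.26, 0.30 and 0.24. Cyp46a1, which makes the oxysterol that Cyp39a1 acts on, rose in all 4 age comparisons, 4.80-fold from 3 wk and 5.00-fold from 4 wk in males, 2.18-fold and 2.11-fold in females, and was 2.51-fold higher in males at 8 wk (adjusted p = 0.00216). The log2 ratio of Cyp39a1 had the opposite sign to that of Cyp46a1 in each of these 5 comparisons. Ch25h, which makes another oxysterol, rose in M8/M3 (1.95-fold, adjusted p = 0.023) and in F8/F3 (1.85-fold, adjusted p = 0.0312), and was the gene not tested between the sexes at 3 and 4 wk, where neither group was well above background on both arrays. Scp2, the sterol carrier with the peroxisomal thiolase, was 1.78-fold higher in males at 8 wk (adjusted p = 0.000241) and rose 1.54-fold in M8/M3. Slc27a2, another acyl coenzyme A ligase, rose 1.67-fold in M8/M3, and Fdx1, the electron donor of Cyp27a1, 1.56-fold. Por, the electron donor of microsomal cytochromes P450 such as Cyp7a1, was lower in males at 8 wk (-1.38 and -0.50, 1.92-fold, adjusted p = 0.0148).

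Among 18 regulators of bile acid synthesis, 1 was called in each sex comparison, all lower in males, and with age 1 was called from 3 wk and 2 from 4 wk in males, and 3 from 3 wk and 0 from 4 wk in females, all higher at 8 wk. Their median log2 ratios lay between -0.14 and 0.30. Ppargc1a, a coactivator that induces Cyp7a1, was 2.15-fold lower in males at 4 wk (-1.19 and -1.02, adjusted p = 0.0143) and rose 1.76-fold from 4 wk in males and from 3 wk in females (adjusted p = 0.0436 and 0.043). Cyp7a1 was called in the same direction in these 3 comparisons, and also in M8/F8 and F8/F4, where Ppargc1a was not called (-0.76 and 0.44, adjusted p = 0.0544 and 0.239). Klb, the partner of Fgfr4, rose 1.57-fold in F8/F3 (adjusted p = 0.000778), and Cebpb 2.17-fold in M8/M3 (adjusted p = 0.00455). The FXR gene Nr1h4 was called in none of the 7 comparisons, with log2 ratios of -0.30 ± 0.10 in M8/M3 (adjusted p = 0.088) and -0.19 in M8/F8 (adjusted p = 0.255). The SHP gene Nr0b2 stood at 0.40 in M8/F8 (adjusted p = 0.0082) and 0.56 in M8/M3 (adjusted p = 0.00233), under the fold threshold. The part of these regulators in the ratios of Cyp7a1 and the other enzymes was not tested.

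Of 19 genes of cholesterol synthesis, 2 were called lower in males at 4 wk, Hmgcs1 (1.52-fold, adjusted p = 0.0354) and Msmo1 (1.53-fold, adjusted p = 0.00255), with a median log2 ratio of -0.205 over the list. At 8 wk 4 were called lower in males, and 5 fell in M8/M3, whereas in the other 3 age comparisons 1 rose, Msmo1 each time. Their median was -0.39 in M8/F8 and -0.52 in M8/M3. Of 13 genes of bile acid transport tested, 4 rose and 2 fell in M8/M3 (median 0.30) and 1 was higher and 1 lower in males at 8 wk (median -0.17). Abcc3, an efflux pump, rose 3.29-fold in M8/M3 and 2.33-fold in F8/F3, and Abcg8, which exports cholesterol, 2.30-fold in M8/M3. Slco1a4, an uptake carrier, was 3.34-fold lower in males at 8 wk (adjusted p = 0.00326) and fell 2.77-fold in M8/M3, as Cyp39a1 did in both comparisons.

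Markers of the cell types in liver were read on the same arrays. All 6 markers of hepatocytes, the cells that make bile acids, were well above background in all channels, 1 rose and 1 fell in M8/M3, and their summed signal had log2 ratios between -0.38 and 0.22 over the 14 arrays. Of 5 Kupffer cell markers, 4 were called lower in males at 8 wk. Their summed signal ranged from 10060 to 15600 in M8 and from 16830 to 25260 in F8, over 6 channels a group that are repeated readings of 2 pools. The log2 ratio of their sum lay between -0.74 and -0.23 on the 6 sex arrays and between -0.91 and -0.23 on the 8 age arrays, and Marco, a scavenger receptor, fell 4.61-fold in M8/M3. Of 4 stellate cell markers 2 fell in M8/M3 and in F8/F3, with log2 ratios of the sum between -1.72 and -0.86 over the 8 age arrays. Of 4 erythroid markers 3 fell with age in each of the 4 comparisons, while the fourth, Alas2, rose 2.59-fold in M8/M3 and 1.98-fold in M8/M4. Alas2, the first enzyme of heme synthesis in red cells, was also higher in males at 4 wk (1.72-fold) and 8 wk (3.70-fold). The log2 ratio of the sum of the erythroid markers ranged from -0.71 to 1.34 with age and from 0.06 to 1.98 between the sexes. The 6 bile duct markers gave a higher sum in males on all 6 sex arrays (0.18 to 0.97) and the 4 endothelial markers a lower one with age (-0.32 to -0.03) and in males (-0.26 to -0.10). The sum of the 4 lymphocyte markers had log2 ratios between -0.25 and 0.19 on all arrays, while Cd3g, a T cell receptor subunit, was lower in M8/F8 (1.81-fold), M8/M3 (1.69-fold) and M8/M4 (1.501-fold), and Cd79a, which marks B cells, was above background on 2 arrays in each dye. The part of these markers in the ratios of the enzymes was not tested.

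Over the 7 mean log2 ratios, which share pools, the profile of Cyp8b1 was most like that of Cyp27a1 among the enzymes (Pearson r = 0.96, n = 7 comparisons) and that of Cyp7b1 most like that of Amacr (0.97). Cyp39a1 was most unlike Acox2 (-0.97) and Cyp7b1 (-0.93) and like Akr1d1 (0.93). Among 12301 genes well above background, the 3 profiles most like each enzyme with a call had r between 0.989 and 0.999. These are the highest of many values at n = 7, given as a description without a test, and so name the nearest profiles only. The profiles belonged to Klf13, Slc43a1 and Stard4 for Cyp7a1, to Plekhm1, Furin and Ctdsp1 for Cyp8b1, to Atxn3, Mcts1 and Slc39a11 for Cyp7b1, to Nfkbib, Tcf20 and Pink1 for Cyp27a1, and to Fmo4, Snx12 and Abl1 for Cyp39a1. For Akr1d1 they were Acss2, Arhgap1 and Slc16a12, for Amacr Agap1, Bbx and Uqcr11, for Baat Amotl2, Zfp451 and Acsm1, and for Slc27a5 Zswim7, Zbtb48 and Zfp874b.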

How the data were processed

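Per the labels and the file headers, the authors hybridized liver RNA labelled with a green and a red Alexa dye to 2-colour Agilent mouse arrays and extracted them with Feature Extraction (linear and LOWESS normalization, genome build mm9). The deposited log10 ratios of red over green (LogRatio) were used as given, turned to log2 with the first-named group on top by the dye labels. Deposited intensity signals served for sums, and the deposited flags of other kinds (well above background, outlier, control) for filters. The deposited values of the whole series equalled these ratios, with a largest difference of 0.

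Control spots and non-uniform outliers were left out and spots of a probe averaged. Probes were named through their RefSeq accession (26055 of 39429), and the brightest probe stood for a gene. limma 3.58.1 in R 4.3.3 (data.table, version 1.17.8) fitted the 7 comparisons and a dye term over 14 arrays (6 residual degrees of freedom, 0.856 prior), with p adjusted over all probes and comparisons together, and within each contrast for differences of comparisons. Tests were two-sided. Pool levels were least-squares estimates per replicate number. The pools are animals combined, so their number and not the count of mice limits the precision.

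Replicate numbers mark the pool reused across comparisons in the design text: the dye-free deviations of M8/F8 minus M3/F3 and M8/M3 minus F8/F3 correlated at 0.913 over 20449 probes, and at 0.904 from 4 wk. The methods give the opposite dye order for an example array, and the labels were followed. The enzymes and all gene lists were chosen with earlier results of these data known. Genes named were all 10 enzymes, at most 5 called genes of each other list in a comparison by size, and for each enzyme with a call the 3 profiles most alike over the 7 mean ratios (so none for Acox2). Nr1h4, Nr0b2, Hnf4a and the values of clock genes and Ppargc1a where these were not called fall outside that rule. The fit was tested on simulated data.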

Additional observations from a re-analysis of the deposited data

Results flagged for a closer look

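Between the sexes, the change from 3 to 8 wk differed for 3 enzymes in limma. The log2 difference of M8/M3 minus F8/F3 was -1.17 for Cyp39a1 (adjusted p = 0.0333), lower in males in both replicates, and -0.67 for Akr1d1 (adjusted p = 0.00177), lower in males in both replicates. It was 0.74 for Acox2 (adjusted p = 0.00751), higher in males in both replicates. M8/M3 and F8/F3 were scanned on different days, and the same differences from arrays of 1 day had the same sign in both replicates. The difference of Cyp39a1 was lost with the replicate block (adjusted p = 0.0505) and the slide block (0.0861), among 11 of 30 alternatives, and those of Akr1d1 and Acox2 were lost without a dye term (0.107 and 0.0931), by the error-weighted average and with a 2-fold threshold.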

How the results depend on the processing

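None of the 110 values (10 enzymes in 7 comparisons and 4 differences) that was called changed its direction under an alternative, and the count of enzymes called moved as follows. Without a fold threshold it was 2 in M3/F3, 4 in M4/F4, 7 in M8/F8, 10 in M8/M4, 9 in M8/M3, 5 in F8/F3, 4 in F8/F4 and 2 in M8/M4 minus F8/F4, while the share of all probes called in the first 7 was 3.18%, 7.2%, 20.5%, 27%, 38.9%, 30.7% and 18.8%. With a 2-fold threshold it was 1 in M4/F4, 3 in M8/F8, 4 in M8/M4, 3 in M8/M3, 0 in F8/F3 and 1 in M8/M3 minus F8/F3, beside 0.483%, 2.98%, 5.18%, 8.22%, 4.6% and 1.8% of all probes. With an unadjusted p below 0.0001 it was 0 in M4/F4, 2 in M8/F8, 4 in M8/M3, 2 in M8/M4 and, among females, 1 in F8/F3 and 0 in F8/F4, with 2 in M8/M3 minus F8/F3, beside 0.348%, 2.54%, 8.88%, 4.35%, 4.89%, 1.78% and 1.14%. Adjustment within the comparison left 1 in M4/F4. With the error-weighted average it was 3 in M4/F4, 4 in F8/F3, 2 in F8/F4, 1 in M8/M4 minus F8/F4 and 2 in M4/M3. Over all probes the error-weighted average called 483, 3090, 1796, 674 and 290 there, in place of 319, 2824, 1432, 363 and 61. Its count of 3 in M8/M3 minus F8/F3 held Cyp39a1, Cyp7a1 and Cyp7b1 and not Akr1d1 or Acox2. For M8/M3 minus F8/F3 it was 5 with normexp and loess, 1 without a dye term and 6 with 6 group means in the fit. For M8/M4 minus F8/F4 it was 1 with median-centred ratios and 3 with 6 group means. The 6 group means also gave 3 in M4/F4 and 4 in F8/F3, with 470 and 3354 calls over all probes. For M4/M3 the count of enzymes was 1 with the replicate block, with the slide block, with 6 group means and with a covariance that holds the shared pools. The replicate block changed the 3 calls given with the results (Cyp39a1 and Cyp7a1 in M8/M3 minus F8/F3, Cyp7a1 in M4/M3) and no other.

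Without 1 array in turn, the count ranged from 0 to 0 in M3/F3, from 1 to 2 in M4/F4, from 3 to 4 in M8/F8, from 5 to 9 in M8/M3, from 2 to 6 in M8/M4, from 1 to 3 in F8/F3, from 0 to 1 in F8/F4 and from 2 to 3 in M8/M3 minus F8/F3, and was 0 in the other differences. Single calls were lost for Amacr in M8/M3 with normexp and loess (0.56) and with median-centred ratios (0.58), and for Baat in M8/M3 with median-centred ratios (0.58). Over all probes, normexp and loess gave 2093 calls in M8/M3 in place of 4255 and 494 in M8/M3 minus F8/F3 in place of 850, and the slide block gave 229 in M8/M4 minus F8/F4. With the covariance of shared pools and with 6 group means, respectively, the calls were 498 and 1962 in M8/M3 minus F8/F3 in place of 850, 78 and 1228 in M8/M4 minus F8/F4 in place of 363, 252 and 589 in M4/M3 in place of 61, and 111 and 355 in F4/F3 in place of 24. The cause was not tested in any of these. With 2 pools a group, the spread between animals is unknown, ratios near 1.5 can fall on either side of the threshold, and ratios within an array show unequal change and not absolute amounts.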
